A study of Mus musculus with 6 samples.

Results

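The comparison described here sets both Ikaros zinc finger mutants, taken as 1 group of 4 libraries, against wild type, with 2 libraries, in mouse B cell precursors transformed by BCR-ABL. All 6 of the 6 libraries of the series entered it. A change is described only where all 4 mutant libraries lie on the same side of both wild type libraries. All 3 groups came from C57BL/6 bone marrow, transduced at day 0 with a BCR-ABL-p185-IRES-YFP retrovirus and grown in vitro as transformed proB-ALL cells. The wild type group (wt) has 1 library from day 21 and 1 from day 28 of culture. The ZnF1 mutant group (genotype Ikaros_ZnF1-/-) and the ZnF4 mutant group (genotype Ikaros_ZnF4-/-) each have 1 library from day 21 and 1 from day 28 as well. All of the cells, the wild type included, carry the BCR-ABL oncogene. Nothing in the labels tells if the 2 days of a genotype are separate cultures or donors, so p-values measure only the spread between these libraries. If the wild type libraries come from 1 culture, a feature of that culture cannot be told apart from the effect of having an intact Ikaros.

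Ikaros, encoded by Ikzf1, is a transcription factor of lymphocyte development that binds DNA through a block of N-terminal zinc fingers and pairs with itself and its relatives through C-terminal fingers. It acts with chromatin complexes such as NuRD, both as a repressor and as an activator, and its core recognition sequence contains GGGAA. In pro-B and pre-B cells it is known for limiting adhesion, for promoting light chain recombination and differentiation, and for tumour suppression in BCR-ABL leukaemia. The inner fingers make the main contacts with the core motif, while fingers 1 and 4 flank them. The comparison asks which genes behave alike when either flanking finger is lost.

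Expression was measured as RPKM, which is a read number corrected for transcript length and library size. The read depth of the libraries is unknown. Of 22098 symbols, 10401 to 11233 were at 1 RPKM or more, depending on the library. Early B lineage markers were abundant throughout, with a summed level of 2934.7 to 3310.0 RPKM and none of the 14 at 0 in any library. Pax5, which maintains B cell identity, was at 158.2 and 133.4 RPKM in wild type (day 21, then day 28), at 177.5 and 172.6 for the ZnF1 mutant and at 170.6 and 145.0 for the ZnF4 mutant, so the groups overlapped. The libraries also differed in transcripts of other cell types. Myeloid and macrophage markers summed to 521.5 and 324.2 RPKM in wild type, to 2013.7 and 2161.2 for the ZnF1 mutant and to 233.6 and 297.8 for the ZnF4 mutant, while Mpo and Elane were at 0 in all 6 libraries. Stromal and endothelial markers summed to 83.2 and 61.3 RPKM in wild type, 270.6 and 249.7 for the ZnF1 mutant and 52.4 and 42.7 for the ZnF4 mutant, with Lum at 0 throughout. In both sums the 2 mutants lie on opposite sides of wild type, and their part in the results for single genes was not tested. In bulk RNA, fewer cells of a type and less RNA per cell cannot be told apart.

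Differences are given as the mean of the mutants minus wild type on the log2(RPKM + 1) scale with the standard error, and this scale understates the change of genes with low values. Genotype was tested in 2 ways over the 11379 genes with at least 1 RPKM in at least 2 libraries. The mutant-arm test treats the 4 mutant libraries as replicates of 1 group and keeps the day as a block, so that a gene must be at a similar level in both mutants to pass. The between-day test fits the 3 genotypes separately, with day as block, and asks whether the mean of the 2 mutants differs from wild type. A day change common to all 3 genotypes is removed by the block. Its error is thus only how far the day changes of the genotypes differ from each other, not the whole spread between the days. Both are limma tests with Benjamini-Hochberg adjustment at 0.05. For a single gene, an exact two-sided permutation of 2 libraries against 4 cannot give a p below 0.133.

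By the mutant-arm test, 4 genes (0.0352% of those tested) rose and 0 fell. Without adjustment, p was below 0.05 for 1105 genes, of which 752 were higher and 311 lower in all 4 mutant libraries and 42 overlapped wild type. The smallest adjusted p of a lower gene was 0.0609. All 4 mutant libraries were above both wild type libraries for 1542 genes (13.6%) and below both for 1002 (8.81%). Of these, 1080 (9.49% of all tested genes) and 453 (3.98%) also passed the between-day test. That test called 2631 genes in all, of which 1098 overlapped wild type, so passing it does not by itself mean a change shared by both mutants. The differences of the 1542 higher and 1002 lower genes were mostly small. Their medians were 0.50 and -0.27, against 0.001 over all genes tested. At least 2-fold separation from both wild type libraries in all 4 mutant libraries was seen for 77 genes on the higher side (0.677%) and 27 on the lower side (0.237%). Another 2141 genes (18.8%) had the mutants on opposite sides of wild type. The split between higher and lower genes depends on scaling: after quantile scaling 1069 genes lay above and 1614 below wild type, and after trimmed mean scaling 1464 and 1328. Without wild type of day 21 the rule is looser, and the genes below numbered 2053 and those at least 2-fold higher 154. Without the replicate block the mutant-arm test called 46 higher and 7 lower genes.

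Hip1, Col6a6, Tcf7l1 and Asb2 were low in both wild type libraries and rose to much the same level in both mutants. Passing the mutant-arm test requires such a likeness of the mutants. Hip1, which encodes a clathrin and actin adaptor, was at 1.6 and 1.1 RPKM in wild type, 21.7 and 16.3 for the ZnF1 mutant and 23.3 and 20.4 for the ZnF4 mutant. Col6a6, a collagen VI chain, was at 1.2 and 1.0 RPKM in wild type, 14.0 and 13.9 for the ZnF1 mutant and 16.5 and 14.5 for the ZnF4 mutant. Each mutant library of these genes was above both wild type libraries, as the rule requires, with 15.1-fold and 13.4-fold higher mean RPKM. The mutant-arm difference was 3.19 ± 0.12 for Hip1 (limma adjusted p = 0.0135) and 2.90 ± 0.11 for Col6a6 (limma adjusted p = 0.0135).

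Tcf7l1 encodes a TCF/LEF family factor that mostly represses Wnt target genes. It was at 3.1 and 2.0 RPKM in wild type, 17.5 and 12.2 for the ZnF1 mutant and 15.3 and 11.7 for the ZnF4 mutant. Asb2, the substrate-recognising part of a ubiquitin ligase that targets filamins, was at 1.8 and 1.5 RPKM in wild type, 10.9 and 9.4 for the ZnF1 mutant and 13.1 and 10.1 for the ZnF4 mutant. Here too the groups did not overlap, as the rule requires, and in each genotype day 28 was below day 21. Tcf7l1 rose by 2.10 ± 0.10 (limma adjusted p = 0.0246) and Asb2 by 2.16 ± 0.12 (limma adjusted p = 0.0358). None of the 4 genes differed between the mutants at an adjusted p of 0.05 (limma, 0.121 for Hip1, 0.251 for Col6a6, 0.291 for Tcf7l1 and 0.190 for Asb2). This follows largely from their choice by the mutant-arm test and is not a separate result. With any 1 library left out no gene passed the mutant-arm test, and for Hip1 the adjusted p then ranged from 0.0564 to 0.835 (limma).

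The promoters of these 4 genes are printed since they share the pattern of low wild type and high mutant values and since Ikaros sites hold GGGAA. They run from 250 bases before to 50 bases after the transcription start, from RefSeq on build GRCm38.p6, 5′ to 3′ on the gene's strand. Capitals mark GGGAA and its reverse complement TTCCC. The expression values rest on another build, mm9, and no coordinate was used for them. Hip1 and Asb2 have 2 annotated starts each. All 6 windows are on the minus strand.
Hip1, chr5:135489180-135489479: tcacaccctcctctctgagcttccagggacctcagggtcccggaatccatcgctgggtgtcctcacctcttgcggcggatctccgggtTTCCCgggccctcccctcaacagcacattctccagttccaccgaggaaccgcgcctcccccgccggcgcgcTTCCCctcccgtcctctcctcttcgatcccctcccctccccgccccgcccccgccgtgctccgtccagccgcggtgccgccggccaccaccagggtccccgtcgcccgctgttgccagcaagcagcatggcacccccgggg
Hip1, chr5:135545073-135545372: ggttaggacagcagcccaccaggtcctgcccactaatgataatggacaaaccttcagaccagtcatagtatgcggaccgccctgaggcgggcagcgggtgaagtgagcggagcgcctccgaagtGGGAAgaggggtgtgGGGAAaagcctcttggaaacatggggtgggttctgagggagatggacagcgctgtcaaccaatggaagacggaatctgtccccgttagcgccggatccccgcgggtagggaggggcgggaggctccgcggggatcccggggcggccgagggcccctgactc
Col6a6, chr9:105828036-105828335: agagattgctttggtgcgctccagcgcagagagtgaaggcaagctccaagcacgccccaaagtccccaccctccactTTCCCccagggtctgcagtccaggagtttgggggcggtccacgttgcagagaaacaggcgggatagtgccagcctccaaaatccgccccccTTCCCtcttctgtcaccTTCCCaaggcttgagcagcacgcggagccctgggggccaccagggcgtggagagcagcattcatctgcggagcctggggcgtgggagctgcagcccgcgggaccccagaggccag
Tcf7l1, chr6:72788996-72789295: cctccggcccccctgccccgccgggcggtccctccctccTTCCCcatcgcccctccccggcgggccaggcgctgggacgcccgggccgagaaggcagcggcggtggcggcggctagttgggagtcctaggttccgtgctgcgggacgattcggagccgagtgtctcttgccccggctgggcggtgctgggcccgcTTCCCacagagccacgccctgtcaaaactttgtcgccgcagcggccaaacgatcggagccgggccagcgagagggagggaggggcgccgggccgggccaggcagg
Asb2, chr12:103355952-103356251: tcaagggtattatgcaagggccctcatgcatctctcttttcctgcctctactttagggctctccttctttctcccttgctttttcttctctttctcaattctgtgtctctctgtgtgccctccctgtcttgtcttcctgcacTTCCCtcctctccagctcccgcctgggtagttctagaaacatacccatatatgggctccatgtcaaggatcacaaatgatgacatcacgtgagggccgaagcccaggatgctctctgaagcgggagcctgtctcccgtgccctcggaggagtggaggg
Asb2, chr12:103338341-103338640: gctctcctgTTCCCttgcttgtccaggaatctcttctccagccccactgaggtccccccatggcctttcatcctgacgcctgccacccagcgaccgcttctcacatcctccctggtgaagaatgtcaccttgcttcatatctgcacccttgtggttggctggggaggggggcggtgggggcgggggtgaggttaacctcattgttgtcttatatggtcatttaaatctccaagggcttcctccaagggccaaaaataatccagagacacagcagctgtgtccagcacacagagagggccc

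Searched on both strands, GGGAA occurs 2 times in each Hip1 window, 3 times in the Col6a6 window, 2 times in the Tcf7l1 window and 1 time in each Asb2 window. The motif is short and common, and 62.7% of the 32851 promoter windows of the same length in the table, from 27025 genes, hold it. The longer TGGGAA, which contains GGGAA, occurs 1 time in the second Hip1 window, 1 time in Col6a6 and 1 time in Tcf7l1, and is held by 25.6% of all windows. The window of Camk2b, a gene on the lower side, was searched in the same way and held neither motif, which says only that these letters are not in it. A match describes letters and not a bound site.

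**Figure D1:**
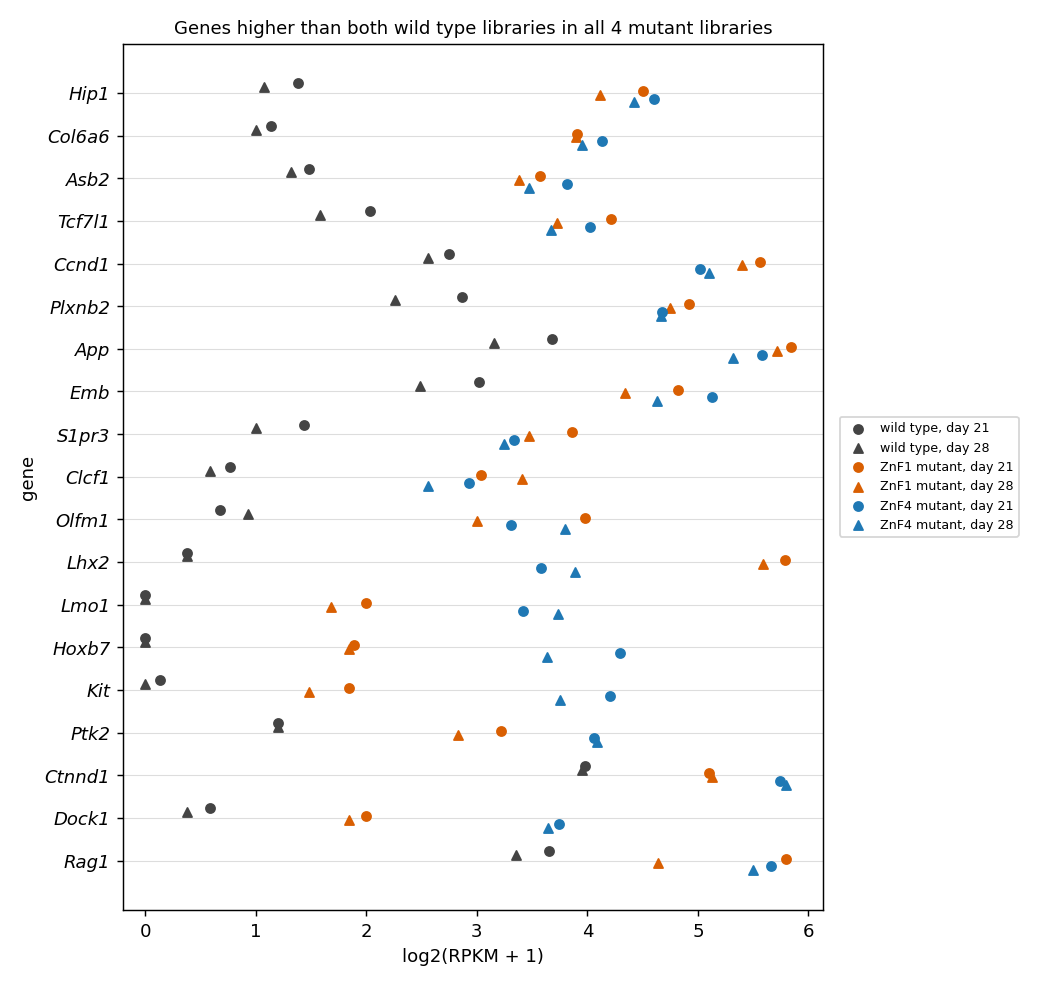
Levels of 19 genes that were above both wild type libraries in all 4 mutant libraries, on a log2(RPKM + 1) axis. Each point is 1 library, with grey for wild type, orange for the ZnF1 mutant, blue for the ZnF4 mutant, circles for day 21 and triangles for day 28. Hip1 and Col6a6 have the mutants side by side, while Lhx2 is highest in the ZnF1 mutant and Kit in the ZnF4 mutant.

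Genes of growth, signalling and secretion described next passed the between-day test but not the mutant-arm test, and the p of each test is given in that order, mutant-arm first. Ccnd1, the D-type cyclin that drives entry into the cell cycle, was at 5.7 and 4.9 RPKM in wild type, 46.1 and 41.1 for the ZnF1 mutant and 31.5 and 33.2 for the ZnF4 mutant. All 4 mutant libraries exceeded both wild type ones, by 7.17-fold in mean RPKM, and the ZnF1 mutant was the higher of the 2. The Ccnd1 difference was 2.62 ± 0.19 (limma adjusted p = 0.0580 by the mutant-arm test and 0.000566 between days). Plxnb2, a semaphorin receptor, was at 6.3 and 3.8 RPKM in wild type, 29.3 and 25.9 for the ZnF1 mutant and 24.6 and 24.4 for the ZnF4 mutant (2.19 ± 0.16, limma adjusted p = 0.0580 and 0.00198). Emb, an immunoglobulin superfamily adhesion protein, was at 7.1 and 4.6 RPKM in wild type, 27.3 and 19.2 for the ZnF1 mutant and 34.0 and 23.7 for the ZnF4 mutant (1.98 ± 0.14, limma adjusted p = 0.0580 and 0.000566). In these genes the lowest mutant library was above the highest wild type library, as the rule requires.

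The same held for App, the amyloid precursor protein, which was at 11.8 and 7.9 RPKM in wild type, 56.3 and 51.4 for the ZnF1 mutant and 46.7 and 38.9 for the ZnF4 mutant (2.20 ± 0.17, limma adjusted p = 0.0609 and 0.000914). Arg1, the urea cycle arginase, was at 3.3 and 1.8 RPKM in wild type, 16.0 and 11.7 for the ZnF1 mutant and 14.5 and 8.9 for the ZnF4 mutant (1.96 ± 0.14, limma adjusted p = 0.0580 and 0.000914). Arg1 is also known from macrophages, whose markers summed to the values given above, and their part in its level was not tested. Among secreted factors, Clcf1, a cytokine of the interleukin-6 family, was at 0.7 and 0.5 RPKM in wild type and at 4.9 to 9.6 in the mutants (2.31 ± 0.26, limma adjusted p = 0.0891 and 0.00257). Stc1, which encodes the hormone stanniocalcin, was listed at 0 in wild type on both days and at 3.2, 1.9, 3.7 and 3.2 RPKM in the mutants (limma adjusted p = 0.0891 and 0.00227).

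Ccl2, a monocyte-attracting chemokine, was at 11.0 and 7.0 RPKM in wild type and at 32.8 to 104.9 in the mutants, with the ZnF4 library of day 28 the highest (limma adjusted p = 0.236 and 0.0120). Receptors in the set included S1pr3, for sphingosine 1-phosphate, at 1.7 and 1.0 RPKM in wild type and 8.5 to 13.5 in the mutants (2.26 ± 0.19, limma adjusted p = 0.0663 and 0.000951). Its relative S1pr1, which guides lymphocyte egress, was at 5.1 and 4.1 RPKM in wild type, 33.1 and 25.5 for the ZnF1 mutant and 17.7 and 11.0 for the ZnF4 mutant (limma adjusted p = 0.233 and 0.00130). The Wnt receptor Fzd7 was at 1.4 and 1.1 RPKM in wild type and 4.2 to 6.9 in the mutants (1.45 ± 0.21, limma adjusted p = 0.140 and 0.00260). Rxra, a nuclear receptor that pairs with many others, was at 2.4 and 2.0 RPKM in wild type and 6.0 to 7.4 in the mutants (1.30 ± 0.13, limma adjusted p = 0.0776 and 0.00214). The groups were apart in each of these genes, as the rule requires.

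Adhesion genes were the list with the highest number of members on the higher side. Of 25 tested members for integrins, cadherin partners and focal adhesion, 8 (32.0%) were above both wild type libraries in all 4 mutant libraries and 1 was below, against 13.6% and 8.81% over all genes, and all 9 passed the between-day test. The list's median difference was 0.30, against 0.001 over all genes. None of them passed the mutant-arm test. Itgb1, the beta chain shared by many integrins, was at 38.3 and 35.5 RPKM in wild type, 67.5 and 69.8 for the ZnF1 mutant and 67.2 and 66.0 for the ZnF4 mutant (0.86 ± 0.09, limma adjusted p = 0.0831 and 0.00257). Its 4 mutant values span only a few RPKM, and the rule sets them apart from wild type. Itga5, the alpha chain of the fibronectin receptor, was at 4.0 and 2.8 RPKM in wild type and 9.3 to 15.1 in the mutants (1.71 ± 0.25, limma adjusted p = 0.142 and 0.00665).

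Ptk2, which encodes focal adhesion kinase, was at 1.3 and 1.3 RPKM in wild type, 8.3 and 6.1 for the ZnF1 mutant and 15.7 and 16.0 for the ZnF4 mutant (2.35 ± 0.44, limma adjusted p = 0.204 and 0.00117). Ctnnd1, the p120 catenin that stabilises cadherins, was at 14.8 and 14.5 RPKM in wild type, 33.2 and 33.9 for the ZnF1 mutant and 52.5 and 54.7 for the ZnF4 mutant (1.47 ± 0.27, limma adjusted p = 0.204 and 0.000854). Both were higher in the ZnF4 than in the ZnF1 mutant (limma adjusted p = 0.00264 for Ptk2 and 0.00135 for Ctnnd1). The actin crosslinker Actn1 went the other way, with 9.1 and 9.4 RPKM in wild type, 55.4 and 51.7 for the ZnF1 mutant and 24.0 and 28.5 for the ZnF4 mutant. Itgal, Vcl and Pxn were the other higher members. The member on the lower side was Itga4, a subunit of the VLA-4 integrin, at 37.2 and 33.6 RPKM in wild type and 23.6 to 30.7 in the mutants (limma adjusted p = 0.552 and 0.0160). Outside the list, Dock1, an activator of Rac downstream of integrins, was at 0.5 and 0.3 RPKM in wild type, 3.0 and 2.6 for the ZnF1 mutant and 12.4 and 11.5 for the ZnF4 mutant.

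Stem and early progenitor genes were mostly low in these cells, and only 9 of the 20 entries could be tested. Of the 9, 4 (44.4%) were above wild type in all 4 mutant libraries and 0 below, against 13.6% and 8.81% of all genes, with a median difference of 0.41. After quantile scaling 3 were higher (Kit, Lmo2 and Procr) and the median was 0.14. All 4 passed the between-day test and none the mutant-arm test. Kit, the stem cell factor receptor, was at 0.1 and 0.0 RPKM in wild type, 2.6 and 1.8 for the ZnF1 mutant and 17.4 and 12.5 for the ZnF4 mutant (2.75 ± 0.92, limma adjusted p = 0.451 and 0.000796). Wild type was thus at or below the lowest value the table resolves, while the mutants differed from each other by 2.31 ± 0.11 (limma adjusted p = 0.000406). Lmo2, a bridging factor of haematopoietic stem cell complexes, was at 2.7 and 2.3 RPKM in wild type, 13.6 and 14.3 for the ZnF1 mutant and 4.9 and 4.5 for the ZnF4 mutant, the reverse order of the mutants. Egfl7 and Tal1 were the other members, and Tal1 was at no more than 1.3 RPKM in any library. Both overlapped wild type after quantile scaling.

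Homeobox and LIM factors outside the lists separated the groups by more. Lhx2, a LIM homeobox factor that is not a usual B cell gene, was at 0.3 and 0.3 RPKM in wild type, 54.4 and 47.0 for the ZnF1 mutant and 11.0 and 13.8 for the ZnF4 mutant (4.33 ± 0.78, limma adjusted p = 0.197 and 0.000471). Hoxb7 was listed at 0 on both days of wild type, at 2.7 and 2.6 RPKM in the ZnF1 mutant and at 18.6 and 11.4 in the ZnF4 mutant (limma adjusted p = 0.380 and 0.00163). Lmo1, a LIM-only relative of Lmo2, was likewise listed at 0 in wild type, at 3.0 and 2.2 RPKM in the ZnF1 mutant and at 9.7 and 12.3 in the ZnF4 mutant (limma adjusted p = 0.328 and 0.00151). Pbx3, a partner of Hox proteins, was at 0.6 and 0.3 RPKM in wild type and 2.6 to 4.7 in the mutants (1.76 ± 0.23, limma adjusted p = 0.117 and 0.00227). These genes were near 0 in wild type and present in both mutants at unlike levels.

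The imprinted growth regulators Igf2 and H19, neighbours under a shared control region, were much higher in the ZnF4 than in the ZnF1 mutant. Igf2, a fetal growth factor, was at 0.7 and 0.2 RPKM in wild type, 6.1 and 5.9 for the ZnF1 mutant and 247.2 and 175.2 for the ZnF4 mutant (4.74 ± 1.94, limma adjusted p = 0.554 and 0.000471). H19, a non-coding RNA, was at 12.2 and 1.3 RPKM in wild type, 23.7 and 36.0 for the ZnF1 mutant and 3062.2 and 2008.3 for the ZnF4 mutant (limma adjusted p = 0.612 and 0.00490). Mir675 lies within H19, and reads of the 2 cannot be told apart. Grb10, an imprinted adaptor that restrains insulin receptor signalling, was at 2.6 and 2.0 RPKM in wild type, 10.9 and 7.6 for the ZnF1 mutant and 30.5 and 16.8 for the ZnF4 mutant (2.24 ± 0.51, limma adjusted p = 0.259 and 0.00170).

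Feedback genes of the ERK pathway are induced by and dampen growth factor signalling. The list used for them also holds immediate early genes such as Fos, Egr1 and Jun, which are not feedback inhibitors. Of its 22 tested members 7 (31.8%) were higher and 0 lower, against 13.6% and 8.81% of all genes, with a median difference of 0.50. Of the 7, 5 passed the between-day test, which 9.49% of all genes passed on the higher side, and none the mutant-arm test. Dusp4, a phosphatase that inactivates ERK, was at 1.5 and 2.1 RPKM in wild type, 3.2 and 4.5 for the ZnF1 mutant and 6.5 and 7.5 for the ZnF4 mutant (1.15 ± 0.31, limma adjusted p = 0.339 and 0.00257). Spred1, an inhibitor of Ras signalling, was at 21.1 and 22.1 RPKM in wild type and 30.6 to 35.8 in the mutants (0.55 ± 0.10, limma adjusted p = 0.211 and 0.0102). Both mutants held Spred1 at about the same level, above wild type by the rule. Among Notch receptors and targets, 4 of 10 (40.0%) were higher and 1 lower, against 13.6% and 8.81% of all genes, and the median of 0.10 turned to -0.10 under quantile scaling. The receptors lay on opposite sides of wild type: Notch2 was at 3.4 and 2.8 RPKM in wild type and 6.6 to 10.2 in the mutants (1.09 ± 0.18, limma adjusted p = 0.173 and 0.00519), while Notch1 was at 22.4 and 22.7 RPKM in wild type and 13.6 to 18.9 in the mutants (-0.49 ± 0.17, limma adjusted p = 0.472 and 0.00814).

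Ikzf1 itself was at 89.2 and 78.7 RPKM in wild type, 108.0 and 91.4 for the ZnF1 mutant and 186.0 and 165.9 for the ZnF4 mutant (0.65 ± 0.34, limma adjusted p = 0.679 and 0.00358). The ZnF1 library of day 28 was barely above wild type of day 21, and after trimmed mean scaling the groups overlapped. Gene-level values do not show the loss of a single finger, so they do not check the genotype labels. Ikzf3, which encodes the partner Aiolos, was at 72.4 and 77.2 RPKM in wild type and 49.3 to 56.9 in the mutants (-0.50 ± 0.09, limma adjusted p = 0.211 and 0.00951). The mutants matched each other in Ikzf3, with a difference of -0.02 ± 0.08. Of the 12 tested members of the zinc finger list, 4 (33.3%) were higher and 1 (8.33%) lower, against 13.6% and 8.81% of all genes, with a median of 0.30. All 5 passed the between-day test but not the mutant-arm test. After quantile scaling 3 were higher and 3 lower, and after trimmed mean scaling 3 and 2. Among 17 genes of NuRD and other Ikaros partner complexes, 1 (5.88%) was higher and 3 (17.6%) lower, and 1 in each direction passed the between-day test. Chd3, a NuRD remodelling subunit, was at 23.7 and 19.5 RPKM in wild type and 26.0 to 41.2 in the mutants (limma adjusted p = 0.513 and 0.00538). Smarca4, the BRG1 ATPase, was at 239.4 and 218.6 RPKM in wild type and 171.0 to 187.5 in the mutants (limma adjusted p = 0.411 and 0.0203).

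On the lower side, several genes that the wild type libraries expressed at a low level were at or near 0 in the mutants. Camk2b, a calcium/calmodulin-dependent kinase, was at 4.9 and 3.6 RPKM in wild type, 0.1 and 0.0 for the ZnF1 mutant and 0.1 and 0.1 for the ZnF4 mutant (-2.28 ± 0.19, limma adjusted p = 0.0651 and 0.00114). Rps6ka6, a kinase of the RSK family, was at 3.0 and 6.8 RPKM in wild type and at most 0.1 in the mutants (limma adjusted p = 0.0945 and 0.00376). Aldh1a7, an aldehyde dehydrogenase, was at 1.7 and 3.8 RPKM in wild type and listed at 0 in all 4 mutant libraries (limma adjusted p = 0.141 and 0.00520). Such genes were at the floor in both mutants, so a difference between the mutants could not have been seen.

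Fcrl6, an Fc receptor-like gene, was at 23.4 and 52.7 RPKM in wild type, 2.9 and 3.8 for the ZnF1 mutant and 0.3 and 0.2 for the ZnF4 mutant (-3.96 ± 0.76, limma adjusted p = 0.211 and 0.00215). Il33, an alarmin cytokine, was at 16.3 and 13.5 RPKM in wild type and 0.6 to 3.4 in the mutants (-2.54 ± 0.51, limma adjusted p = 0.218 and 0.00163). The ZnF4 mutant was below the ZnF1 mutant in both genes (limma adjusted p = 0.00639 for Fcrl6 and 0.00331 for Il33). Hspb8, a small heat shock protein, had the reverse order, with 24.3 and 43.0 RPKM in wild type, 1.2 and 3.3 for the ZnF1 mutant and 9.2 and 11.3 for the ZnF4 mutant (limma adjusted p = 0.399 and 0.00200).

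Surface proteins of lymphocytes were among the lower genes. Cxcr5, the receptor for the follicle chemokine, was at 26.1 and 17.6 RPKM in wild type, 1.5 and 5.7 for the ZnF1 mutant and 1.9 and 4.6 for the ZnF4 mutant (-2.47 ± 0.42, limma adjusted p = 0.176 and 0.0130). The difference was -1.60 without wild type of day 21. Btla, an inhibitory receptor of lymphocytes, was at 3.2 and 6.3 RPKM in wild type, 0.5 and 0.5 for the ZnF1 mutant and 0.2 and 0.1 for the ZnF4 mutant (-2.08 ± 0.29, limma adjusted p = 0.140 and 0.00431). For both genes the mutants were not called different from each other (limma adjusted p = 0.974 and 0.241). Ly6d, a marker of B lineage commitment in lymphoid progenitors, was at 107.2 and 110.1 RPKM in wild type, 23.6 and 49.8 for the ZnF1 mutant and 2.2 and 3.2 for the ZnF4 mutant (limma adjusted p = 0.542 and 0.00200). Cd24a, a glycoprotein of early B cells, was at 208.2 and 178.2 RPKM in wild type and 92.3 to 124.4 in the mutants (-0.86 ± 0.16, limma adjusted p = 0.204 and 0.00532).

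The plot of lower genes also shows Sytl2, Hopx, Cpm and Scn4b. Sytl2, a Rab27 effector of vesicle traffic, was at 15.8 and 15.2 RPKM in wild type and 1.1 to 3.4 in the mutants (-2.53 ± 0.36, limma adjusted p = 0.140 and 0.00130). Hopx, an unusual homeodomain protein, was at 8.7 and 10.3 RPKM in wild type and 2.4 to 3.8 in the mutants (-1.29 ± 0.14, limma adjusted p = 0.0849 and 0.00304). That no mutant library reached the wild type range in these genes follows from the rule. Myl10, a myosin light chain and the most abundant of the lower genes named, was at 842.6 and 1124.2 RPKM in wild type, 512.4 and 833.3 for the ZnF1 mutant and 269.2 and 408.9 for the ZnF4 mutant (limma adjusted p = 0.525 and 0.00358). Its highest mutant library, ZnF1 of day 28, came close to wild type of day 21, and the groups overlapped when all entries of the symbol were summed.

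**Figure D2:**
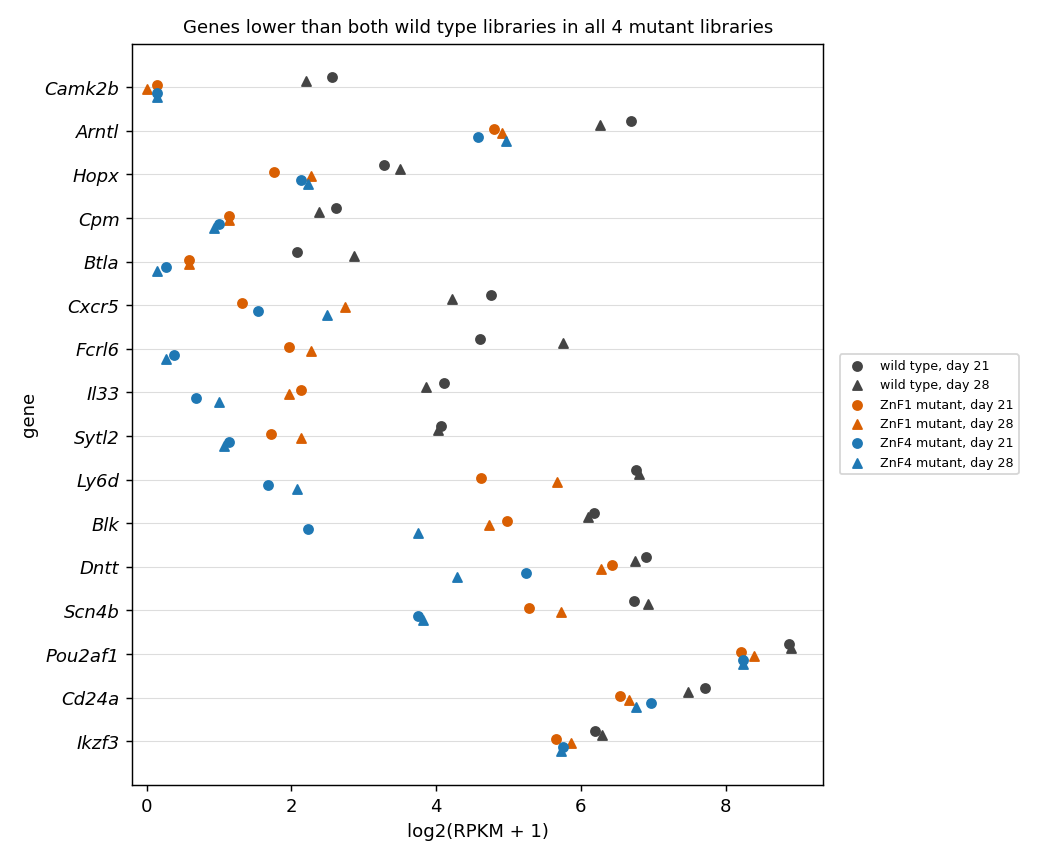
Levels of 16 genes that were below both wild type libraries in all 4 mutant libraries, on a log2(RPKM + 1) axis. Each point is 1 library, with colours for the genotype and shapes for the day. Camk2b, Hopx and Cpm have the 4 mutant libraries close together, while Blk, Dntt, Ly6d and Scn4b are lowest in the ZnF4 mutant.

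The pre-B cell receptor and its signalling proteins, which test for a functional heavy chain, were lower for 5 of 23 tested genes (21.7%) and higher for 2 (8.70%), against 8.81% and 13.6% of all genes, with a median of -0.09. After quantile scaling 3 were lower. In each direction 2 passed the between-day test and 0 the mutant-arm test. Blk, a Src family kinase of B cells, was at 71.3 and 67.4 RPKM in wild type, 30.4 and 25.4 for the ZnF1 mutant and 3.7 and 12.4 for the ZnF4 mutant (-2.22 ± 0.83, limma adjusted p = 0.505 and 0.0148). Bank1, an adaptor of B cell receptor signalling, was at 23.8 and 23.1 RPKM in wild type and 33.1 to 54.5 in the mutants (0.79 ± 0.16, limma adjusted p = 0.222 and 0.00920). Ptpn6, the SHP-1 phosphatase that dampens receptor signals, was at 68.5 and 73.9 RPKM in wild type and 86.8 to 114.7 in the mutants (limma adjusted p = 0.437 and 0.00984). The surrogate light chain genes Igll1 and Vpreb1 overlapped between the groups. Igll1 was at 810.6 and 663.0 RPKM in wild type, 756.8 and 704.6 for the ZnF1 mutant and 1124.8 and 1005.9 for the ZnF4 mutant.

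Among 19 B lineage transcription factors, 6 (31.6%) were lower in all 4 mutant libraries and 0 higher, against 8.81% and 13.6% of all genes, with a median of -0.23. Of the 6, 3 passed the between-day test, which 3.98% of all genes passed on the lower side. Pou2af1, the co-activator OBF-1, was at 468.8 and 476.8 RPKM in wild type, 294.1 and 333.7 for the ZnF1 mutant and 302.0 and 299.8 for the ZnF4 mutant (-0.62 ± 0.12, limma adjusted p = 0.218 and 0.00786). Tcf3, which encodes the E2A proteins of B lineage specification, was at 113.0 and 114.2 RPKM in wild type and 73.8 to 97.4 in the mutants (-0.41 ± 0.12, limma adjusted p = 0.373 and 0.0333), and the difference was -0.27 without wild type of day 21. Ets1 and Myb had all 4 mutant libraries below wild type without passing either test (limma adjusted p = 0.467 and 0.0540 for Ets1, 0.586 and 0.127 for Myb), and Myb overlapped after quantile scaling. Ebf1, the specification factor upstream of Pax5, was at 215.6 and 202.0 RPKM in wild type and 166.1 to 207.4 in the mutants, an overlap. Bach2 and Irf4 were the other lower members, and their values are not given here. For the factors with values given, the differences were modest in size, all well under 2-fold.

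Genes of V(D)J recombination, the cutting and joining of antigen receptor segments, lay on both sides of wild type. Of 13 tested, 4 (30.8%) were higher and 3 (23.1%) lower, against 13.6% and 8.81% of all genes, with a median of -0.07. After quantile scaling 2 were higher and 4 lower, with a median of -0.19. Rag1, a subunit of the recombinase, was at 11.6 and 9.2 RPKM in wild type, 54.7 and 23.9 for the ZnF1 mutant and 49.6 and 44.3 for the ZnF4 mutant (1.90 ± 0.27, limma adjusted p = 0.140 and 0.00564). Rag2, its partner, was at 9.2 and 7.5 RPKM in wild type, 19.0 and 13.1 for the ZnF1 mutant and 20.6 and 15.0 for the ZnF4 mutant (0.92 ± 0.11, limma adjusted p = 0.0959 and 0.00304). Both recombinase genes were above wild type in each mutant library, as the rule requires of a change described. The joining genes Lig4, Xrcc6 and Dntt were on the lower side and passed the between-day test, whereas Xrcc4 and Nhej1, also of end joining, were slightly above wild type in all 4, passed neither test and overlapped after quantile scaling.

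Lig4, the ligase of end joining, was at 11.0 and 10.9 RPKM in wild type, 5.4 and 8.3 for the ZnF1 mutant and 3.8 and 3.2 for the ZnF4 mutant (-1.02 ± 0.35, limma adjusted p = 0.467 and 0.0125). Xrcc6, which encodes Ku70, was at 71.0 and 66.5 RPKM in wild type and 44.2 to 50.9 in the mutants (-0.54 ± 0.11, limma adjusted p = 0.218 and 0.00623). Dntt, the terminal transferase that adds nucleotides at junctions, was at 118.8 and 106.7 RPKM in wild type, 85.2 and 76.6 for the ZnF1 mutant and 36.7 and 18.6 for the ZnF4 mutant (-1.27 ± 0.66, limma adjusted p = 0.681 and 0.0100). It was -0.81 without the ZnF4 library of day 28. Dntt was lower in the ZnF4 than in the ZnF1 mutant (the ZnF4 minus ZnF1 difference was -1.59 ± 0.21, limma adjusted p = 0.00315), whereas Rag1 and Rag2 were not called different between them (0.278 and 0.234).

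Other lists had few genes on the same side of wild type in both mutants. Over all tested genes, 13.6% were higher and 8.81% lower in all 4 mutant libraries, and these shares apply to each list here. None of 25 replication and mitosis genes had the mutants on 1 side of wild type, with a median of -0.16, although Ccnd1 did. Of 13 D cyclins, their kinases and kinase inhibitors, Ccnd1 alone was separated. The p53 targets had 0 of 18 higher and 2 (11.1%) lower, Ccng1 and Aen, both of which passed the between-day test, and Ccng1 overlapped after quantile scaling. In the Bcl2 family the only separated gene of 11 (9.09%) was Bid, a pro-apoptotic member. It was at 39.8 and 42.0 RPKM in wild type and 23.1 to 29.5 in the mutants (-0.64 ± 0.12, limma adjusted p = 0.212 and 0.00329). Glycolysis and glucose transport had 1 of 16 genes (6.25%) higher and 2 (12.5%) lower. The higher gene was Pfkm, a phosphofructokinase, which passed the between-day test. STAT5 feedback and target genes had 0 of 17 higher and 3 (17.6%) lower, namely Pim2, Stat5a and Jak3, of which Stat5a passed the between-day test. In phosphoinositide and mTOR signalling 1 of 22 (4.55%) was higher and 2 (9.09%) were lower. Irs2, an insulin receptor substrate, was among the latter, at 10.7 and 9.9 RPKM in wild type, 8.9 and 8.7 for the ZnF1 mutant and 4.2 and 4.0 for the ZnF4 mutant.

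**Figure D3:**
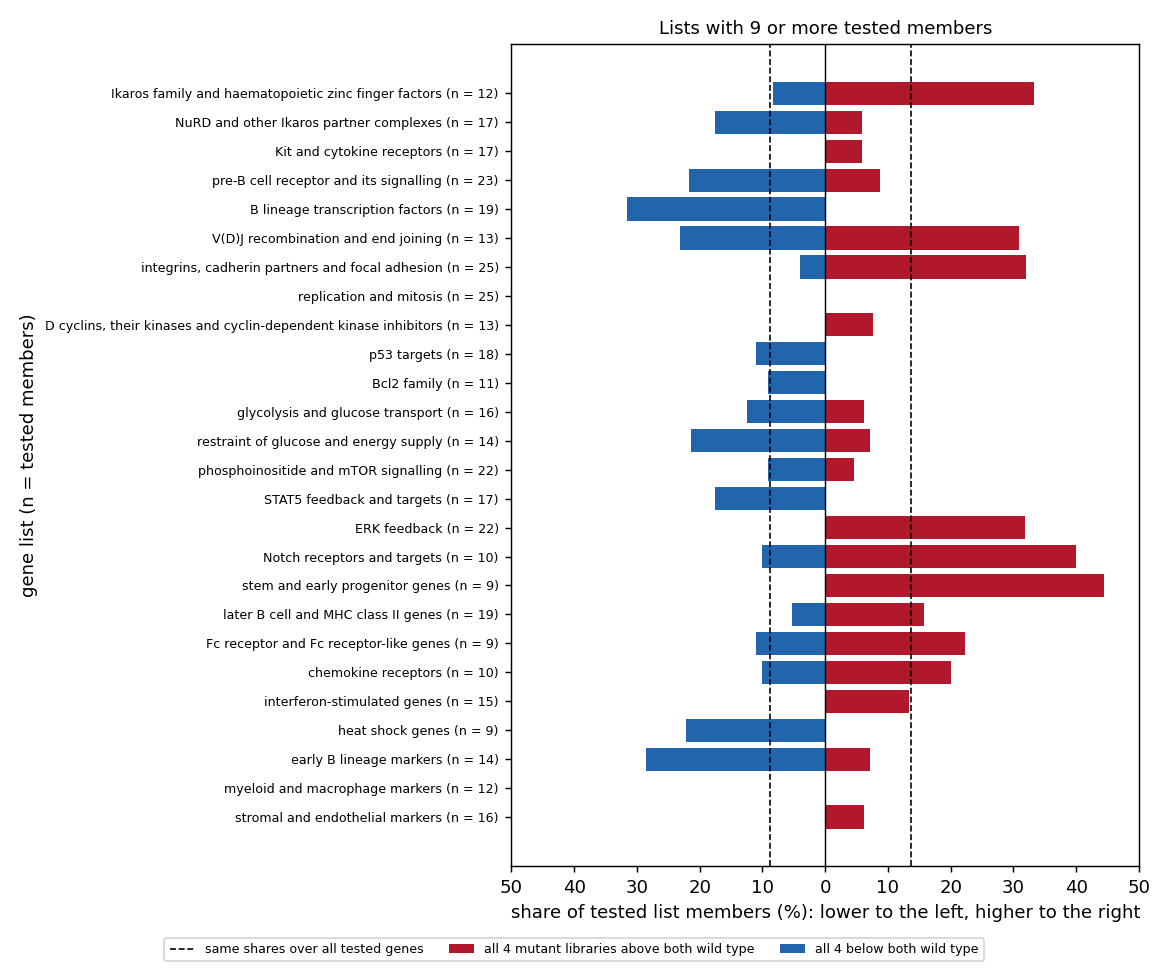
Share of the tested members of each gene list, in percent, with all 4 mutant libraries above both wild type libraries (red, to the right) or below both (blue, to the left). Dashed lines mark the shares over all tested genes, 13.6% and 8.81%. The stem and early progenitor list reaches farthest past the right line, and B lineage transcription factors farthest past the left one. Others past the right line include the Notch, zinc finger, adhesion, ERK feedback and V(D)J lists. Others past the left line include early B lineage markers and the V(D)J, heat shock and pre-B cell receptor lists.

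Genes of later B cells and of MHC class II were higher for 3 of 19 (15.8%) and lower for 1 (5.26%). Over all tested genes the shares were 13.6% and 8.81%, and these also apply to the lists that follow here. H2-Aa, an MHC class II chain that macrophages also express, was at 0.4 and 0.2 RPKM in wild type, 9.5 and 4.1 for the ZnF1 mutant and 1.0 and 0.6 for the ZnF4 mutant. H2-Aa passed the between-day test but not the mutant-arm test (limma adjusted p = 0.719 by the mutant-arm test and 0.00746 between days). Its wild type and ZnF4 values were low, in a scale rounded to 0.1 RPKM. The ZnF1 mutant had the highest H2-Aa level and the highest myeloid marker sums. On both days the ZnF4 mutant had a lower myeloid sum than wild type of the same day. The part of myeloid cells in the H2-Aa level was not tested. Fcgr2b, the inhibitory Fc receptor of B and myeloid cells, was at 19.3 and 27.5 RPKM in wild type, 53.5 and 56.6 for the ZnF1 mutant and 30.7 and 32.1 for the ZnF4 mutant. Interferon-stimulated genes were higher for 2 of 15 (13.3%), near the share of all genes. Of the markers of other cell types, 0 of 12 myeloid and 1 of 16 stromal genes (Kdr, at no more than 2.5 RPKM) were on 1 side of wild type in all 4 mutant libraries. Among 14 early B lineage markers 1 (7.14%) was higher and 4 (28.6%) lower, against 13.6% and 8.81% of all genes. Their median of -0.01 changed sign under quantile scaling. The 6 T cell markers were split, with Tcf7 higher, at 2.2 and 2.0 RPKM in wild type and 5.2 to 7.0 in the mutants, and Lck and Lat lower. Eif2s3y, a Y-linked gene, was at 23.0 and 10.6 RPKM in wild type and 35.5 to 42.1 in the mutants, while the Y-linked Kdm5d was at 9.1 to 10.8 in all libraries. Kit was the only separated gene of 17 receptors for cytokines and stem cell factor, and heat shock genes had 0 of 9 higher and 2 (22.2%) lower. Fc receptor genes had 2 of 9 higher and 1 lower, chemokine receptors 2 of 10 higher and 1 lower, and genes that restrain glucose and energy supply 1 of 14 higher and 3 lower.

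The 2 mutants shared the direction of these genes by construction of the rule, but not always the size. They were called different from each other for 559 of the 1542 higher genes (36.3%) and 238 of the 1002 lower genes (23.8%), against 45.5% of all tested genes. Among those 559 higher genes the ZnF1 mutant was farther from wild type in 318 and the ZnF4 mutant in 241, and among the 238 lower genes the ZnF1 mutant in 89 and the ZnF4 mutant in 149. The balance was the reverse for the 77 genes at least 2-fold higher, of which 36 differed between the mutants: the ZnF4 mutant was farther from wild type in 28 of them and the ZnF1 mutant in 8. Of the 27 at least 2-fold lower, 14 differed, 12 with the ZnF4 mutant farther and 2 with the ZnF1 mutant farther. Kit, Igf2, Hoxb7, Dock1, Ly6d and Scn4b were farther in the ZnF4 mutant. Lhx2, Actn1, S1pr1 and Hspb8 were farther in the ZnF1 mutant. Lhx2 differed by -1.95 ± 0.14 for ZnF4 minus ZnF1 (limma adjusted p = 0.000594) and Igf2 by 4.90 ± 0.14 (limma adjusted p = 0.000376). S100a4, a calcium-binding protein also abundant in macrophages, was at 18.6 and 16.3 RPKM in wild type, 71.1 and 106.3 for the ZnF1 mutant and 45.8 and 50.2 for the ZnF4 mutant. The wild type libraries are common to both differences of a gene, so the likeness of the 2 is not given as a correlation.

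**Figure D4:**
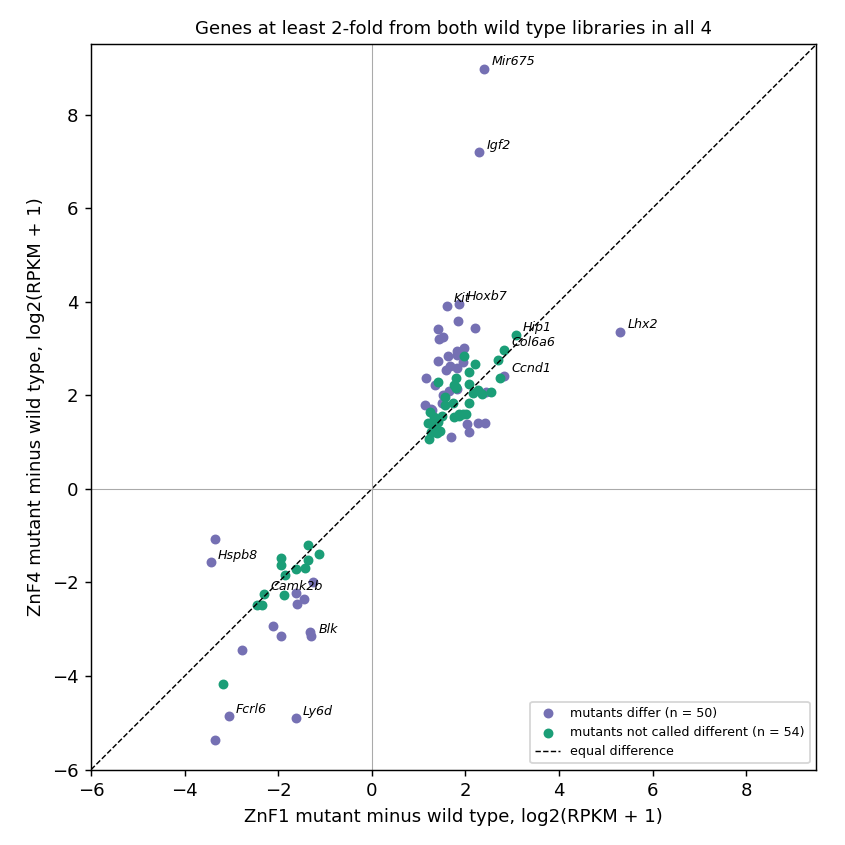
Difference from wild type in the ZnF1 mutant (x axis) and the ZnF4 mutant (y axis) for the 104 genes at least 2-fold from both wild type libraries in all 4 mutant libraries, on the log2(RPKM + 1) scale. Each point is 1 gene, purple where the mutants were called different and green where they were not, and the dashed line marks an equal difference. Both axes share the wild type libraries, and all genes lie in the upper right or lower left by the choice of genes. Hip1, Col6a6 and Camk2b lie close to the line, Igf2 and Kit above it and Lhx2 below it.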

How the data were processed

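Poly(A) RNA of 6 libraries was sequenced. Per the submitters' processing notes, the authors used TopHat and bedtools with build mm9; versions, annotation and read numbers are not given in the sources used here. No strand-marking step is named per the labels' protocols, so a gene and an overlapping antisense gene cannot be told apart. The authors deposited 1 table of RPKM values, rounded to 1 decimal (0.1 is the smallest value above 0). Low values fell on steps of single reads little more often than by chance, with the largest gap in the ZnF4 library of day 21 (57.6% against 50.5%), so the depth stayed unknown, with no counting interval. Of 26531 named table entries for 22098 symbols, the entry with the highest mean stood for each of the 3305 symbols with several, and 1 entry without a name was left out. No 2 libraries shared more than 5.61% of their values.

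Values were transformed as log2(RPKM + 1) and 11379 genes with at least 1 RPKM in at least 2 libraries were fitted with limma 3.58.1 (R 4.3.3), with a mean-variance trend. The mutant-arm test (wild type against 4 mutant libraries, day as block) has 3 residual degrees of freedom and a prior of 1.78; the between-day test (3 genotypes and day) has 2 and 3.22. The mutant-arm test was tested on simulated data with the same effect in both mutants, no day effect and noise from the spread within genotypes. In the real data the mutants were called different for 45.5% of tested genes. The simulation therefore cannot show how the test behaves where the mutants differ. Day comes from the labels, and the day changes of the genotypes correlated across genes (Pearson 0.433, 0.249 and 0.226; genes are not independent replicates), and the block was kept.

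The 24 gene lists and 7 marker lists were chosen with earlier results of these data known. Of their 533 entries, 530 matched a symbol. The naming rule took the called genes, the 12 with the largest difference, the 5 with the highest level and up to 4 members per list, with a fixed set (Igll1, Vpreb1, Pax5, Ebf1 and Il7r among them). With only 4 called genes, the ranking was applied to genes that passed the between-day test, and genes at least 2-fold apart were added; these extensions were chosen after values were seen. Genes of unknown function are left unnamed, and some genes that the rule names are left out of the text. Alternatives were another pseudocount (0.1), filters, scalings, no block, no trend, summed entries and each library left out.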

Additional observations from a re-analysis of the deposited data

Results flagged for a closer look

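Within the 4 mutant libraries, 33 of the genes reported here were looked at for 1 library that stands apart, by comparing its gap to the nearest of the others with the whole range, and 1 was found. Chance alone gives about 1 in 20. Tmem59l was highest in the ZnF1 mutant at day 28, at 5.3 RPKM against 0.6 to 0.9 in the others (gap over range 0.875), and at 30.4 and 30.6 RPKM in wild type.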

How the results depend on the processing

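The mutant-arm test gave 4 higher and 0 lower genes, and the count of higher genes was 2 with no filter, 14 with a mean of at least 4 RPKM, 2 after quantile scaling, 46 without the replicate block and 1080 with the 3 genotypes fitted separately. The lower count was 1 with a mean of at least 4 RPKM, 1 without the trend, 7 without the replicate block and 453 with 3 genotypes fitted. Leaving out any 1 library gave 0 calls in either direction (0 to 0). Genes with all mutant libraries above wild type numbered 962 with a mean of at least 4 RPKM, where only 8604 genes were tested, and 1692 to 2201 with 1 library left out. With a library left out the rule sets fewer conditions, so the counts of separated genes cannot fall below those of all 6 libraries. Those below numbered 1614 after quantile scaling and 1127 to 2053 with 1 library left out (2053 without wild type of day 21, 1506 without wild type of day 28 and 1551 without ZnF4 of day 28). The counts of genes at least 2-fold apart, chosen after seeing the data, were 210 higher with a pseudocount of 0.1, 45 higher after quantile scaling and 87 to 154 higher with 1 library left out (154 without wild type of day 21), against 77, and 16 lower with a mean of at least 4 RPKM, against 27. Over 40 named genes and their alternatives, 599 tests gave 535 on the same side of the threshold, 28 weaker, 36 stronger (31 of them in the between-day test) and 0 reversed. Only a called gene can become weaker, so all 28 weaker results fall on the 4 called genes. For the other named genes the same side means not called in either fit, so the total does not show that the calls are stable. Apart from the looser rule with a library left out, the cause of these shifts was not tested. Unknown depth limits the genes near 0.1 RPKM, and if the wild type libraries share a culture, its features cannot be told apart from genotype.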

Other observations

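Clock genes, chosen after their values were seen, were looked at because Arntl is among the genes at least 2-fold lower. Arntl, which encodes the clock activator BMAL1, was at 102.2 and 75.9 RPKM in wild type, 26.9 and 29.0 for the ZnF1 mutant and 22.8 and 30.2 for the ZnF4 mutant. All 4 mutant libraries were well below wild type and close to each other (-1.67 ± 0.19, limma adjusted p = 0.0849 by the mutant-arm test and 0.00431 between days). Its partner Clock was at 7.2 and 6.7 RPKM in wild type and 6.8 to 8.2 in the mutants, an overlap. Tef, a PAR bZIP factor controlled by the clock, was at 4.0 and 3.6 RPKM in wild type and 6.0 to 7.6 in the mutants (0.71 ± 0.13, limma adjusted p = 0.200 and 0.00743). Bhlhe40, a repressor of BMAL1 targets, was at 4.6 and 4.7 RPKM in wild type, 5.8 and 9.4 for the ZnF1 mutant and 14.3 and 17.7 for the ZnF4 mutant (limma adjusted p = 0.535 and 0.00668). Per1, Per3 and Nfil3 were also above wild type in all 4, although Per1 and Nfil3 overlapped after quantile scaling, while Per2, Cry1, Cry2, Nr1d1, Nr1d2, Dbp and Bhlhe41 overlapped. The time of day of sampling is not given in the labels, and its part was not tested.

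Aes, a Groucho family co-repressor, was at 22.1 and 7.0 RPKM in wild type and 66.4 to 89.6 in the mutants (2.55 ± 0.37, limma adjusted p = 0.142 and 0.00771), so the wild type libraries differed from each other more than the mutants did in proportion. Among genes with matched mutants, Aldh2, an aldehyde dehydrogenase, was at 43.4 and 45.9 RPKM in wild type and at 85.6 or more in the mutants (limma adjusted p = 0.0831 and 0.00215). Pcdh11x, a protocadherin, was at 24.8 and 31.0 RPKM in wild type and 10.7 to 15.1 in the mutants (-1.08 ± 0.08, limma adjusted p = 0.0609 and 0.00200).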
